A study of Mus musculus with 4 samples.

Results

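Interferon response genes that encode surface and signalling proteins were followed across all clusters of innate and other lymphocytes sorted from mouse liver and lung. The 9 genes were chosen by name: *Ly6a*, *Ly6e*, *Ly6c2*, *Bst2*, *Ifitm1*, *Ifitm2*, *Ifitm3*, *Isg15* and *Irf1*. They were 9 of the 3488 genes in the 2 marker tables of the series. The cells came from wild-type BALB/c mice aged 8 weeks, which were given daily injections for 5 days, of 0.5 µg recombinant interleukin-33 (rIL-33) in the treated arm and of PBS alone in controls. Liver and lung of each arm were sampled, which gave 4 groups (PBS liver, rIL-33 liver, PBS lung, rIL-33 lung) with 1 library each, made from the pooled tissue of several mice. Cells were sorted by flow cytometry as lineage-negative and positive for CD127, Thy1 and ST2, the IL-33 receptor, and the lineage antibodies included CD3e and Ly6C.

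Interferons are cytokines that cells release on infection. They signal through surface receptors and JAK kinases to transcription factors that switch on a large set of interferon-stimulated genes. IRF1 is a transcription factor of this response and is best known downstream of interferon-γ. ISG15 is a ubiquitin-like protein that is attached to other proteins, BST2 (tetherin) holds budding virus particles at the cell surface, and the IFITM proteins sit in membranes and limit virus entry. LY6A (Sca-1), LY6E and LY6C are small surface proteins held by a lipid anchor, and LY6A is widely used to mark blood stem cells and some endothelium.

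The values were shares of cells in which a gene had a value above 0, inside a cluster and in all other cells, which the authors deposited for the genes higher on average in that cluster. A row, 1 gene in 1 cluster, is called a listing here. The cell type table set every one of 21 cell types against the remaining sorted cells, with 4422 listings of 1679 genes. The ILC2 subcluster table did the same for 10 subclusters, numbered from 0, of the cells kept as group 2 innate lymphoid cells (ILC2s), with 3745 listings of 2629 genes. All 4 libraries were pooled in both tables, so rIL-33 and PBS, and liver and lung, were not compared, no replicate stood behind any value, depth was unknown and no test was made. Where a listing is missing, the gene may be lower, not different or too rare in that cluster.

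In the genome (GRCm38) the LY6 genes shared a region of chromosome 15, with *Ly6e* at chr15:74955051-74959905 on the plus strand, *Ly6a* at chr15:74994877-74998031 and *Ly6c2* at chr15:75108158-75111970, both on the minus strand. The IFITM genes lay side by side on chromosome 7, *Ifitm2* at chr7:140954837-140955987 and *Ifitm3* at chr7:141009586-141010770 on the minus strand and *Ifitm1* at chr7:140967221-140969825 on the plus strand. *Bst2* was at chr8:71534255-71537456 and *Isg15* at chr4:156199424-156200818, both on the minus strand, and *Irf1* at chr11:53770014-53778374 on the plus strand. All 9 are protein-coding. *Ly6c2* has a close copy in *Ly6c1* (chr15:75044018-75048830), and the IFITM genes also resemble each other, so how reads were divided between such copies is uncertain.

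The promoters of 3 members are printed because *Isg15*, *Bst2* and *Irf1* were listed together for 1 ILC2 subcluster and carried matches, before the gene start, to the motifs through which interferon signals reach genes. RefSeq promoter windows (GRCm38.p6, 250 bases before to 50 after the gene start) were at hand for 7 of 9 members, all but *Ly6a* and *Ly6e*, and both strands were searched. The motifs were the core of the interferon-stimulated response element, bound by IRF proteins among others, and the gamma-activated sequence TTCNNNGAA, known for the response to interferon-γ. The 250 bases before the start are given 5′ to 3′ along the gene's own strand, at chr4:156200819-156201068 for *Isg15*, chr8:71537473-71537722 for *Bst2* and chr11:53769764-53770013 for *Irf1*, with motif matches in capitals.
Isg15: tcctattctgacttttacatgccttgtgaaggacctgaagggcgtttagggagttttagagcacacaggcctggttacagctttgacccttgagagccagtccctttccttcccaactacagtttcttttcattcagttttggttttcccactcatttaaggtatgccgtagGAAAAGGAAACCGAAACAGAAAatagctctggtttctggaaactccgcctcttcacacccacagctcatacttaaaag
Bst2: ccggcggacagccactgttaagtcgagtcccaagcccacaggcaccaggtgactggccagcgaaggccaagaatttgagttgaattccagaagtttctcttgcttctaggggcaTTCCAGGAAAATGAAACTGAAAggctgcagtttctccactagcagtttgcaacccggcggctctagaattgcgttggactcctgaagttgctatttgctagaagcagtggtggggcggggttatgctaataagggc
Irf1: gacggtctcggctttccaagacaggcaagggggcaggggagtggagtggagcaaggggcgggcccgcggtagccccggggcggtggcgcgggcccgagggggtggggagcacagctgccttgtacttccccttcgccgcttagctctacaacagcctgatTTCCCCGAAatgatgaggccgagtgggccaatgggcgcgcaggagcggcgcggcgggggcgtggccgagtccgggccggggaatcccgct
*Isg15* held 3 overlapping response element matches, between 78 and 57 bases before its start. *Bst2* held 2 response element matches and 1 gamma-activated match, which overlap in a run from 136 to 115 bases before the start. *Irf1* held 1 gamma-activated match, 90 to 82 bases before the start, and no response element match in this window. *Ifitm2* held 1 response element match and *Ifitm3* held 2 along with 1 gamma-activated match, those of *Ifitm3* within the 50 bases after its start, so that its promoter is not printed although it was listed with these 3. A second *Irf1* window, for another start, held no match. The response element core was in 3.44% of 32851 promoter windows and the gamma-activated sequence in 8.30%. Of the 7 members with a window, 4 held the core and 3 the gamma-activated sequence. These are counts of genes and not of windows, and *Irf1* and *Ly6c2* had more than 1 window each. A match describes letters and is not evidence of binding.

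Among ILC2s, 5 of the 9 members were listed for subcluster 8, the small group solved at 0.668 ± 0.0164% of ILC2s (regression standard error), and only *Ifitm3* and *Ly6e* were listed for another subcluster. Subclusters 1, 7 and 8 were the 3 that listed a member, with 7 listings of 6 members, and the other 7 subclusters listed none. *Ly6c2*, *Ifitm1* and *Ifitm2* were listed for no ILC2 subcluster. In subcluster 8, 9.62% of all genes in the table were listed, beside 5 of 9 members.

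*Ly6a* was detected in 27.0% of subcluster 8 and in 5.30% of all other ILC2s, a difference of 21.7 percentage points and a ratio of 5.09. *Isg15* was found in 28.1% of its cells against 7.80% of other ILC2s, 3.6 times the share. *Ifitm3* was found in 30.3% against 13.5%, a ratio of 2.24. These 3 genes were in fewer than 1 in 3 cells even where they were listed. *Bst2* was detected in 61.8% of subcluster 8 and 42.4% of other ILC2s, and *Irf1* in 44.9% and 29.3%. Their ratios, 1.46 and 1.53, were the lowest of the 5 members, although their differences, 19.4 and 15.6 points, were close to the rest. Over the 5 members the median difference was 19.4 points and the median ratio 2.24, beside 18.9 points and 1.48 over all 253 genes listed for subcluster 8.

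*Ifitm3* was the member listed for more than 1 subcluster. In subcluster 1, solved at 20.1 ± 0.0166% of ILC2s, it was found in 28.4% of cells against 10.0% of other ILC2s, 2.84 times the share. Subclusters 1 and 8 thus held similar shares of *Ifitm3*-positive cells, 28.4% and 30.3%, and the other 8 subclusters together held 9.78%. For subcluster 1, 13.8% of all genes in the table were listed, with a median ratio of 1.34. *Ly6e* was listed for subcluster 7 only, at 1.42 ± 0.0144% of ILC2s, with 27.0% of cells against 4.80% elsewhere. Its ratio of 5.63 was the largest among the members in this table, beside a median of 1.70 over the 270 genes of that subcluster, for which 10.3% of all genes were listed. Its difference, 22.2 points, was below the median of 23.1 points over those genes. Subcluster 7 listed 4 of 10 ILC2 markers, among them *Il13* (60.5% against 36.6%), and 2 of the 6 T cell genes in the table. It also listed *Nkg7*, a cytotoxic granule gene, in 40.0% against 13.0%, *Tcrg-C1*, a T cell receptor constant segment, in 42.0% against 25.8%, and the progenitor factor *Sox4* in 34.0% against 2.0%. Their part in the *Ly6e* value was not tested.

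**Figure D1:**
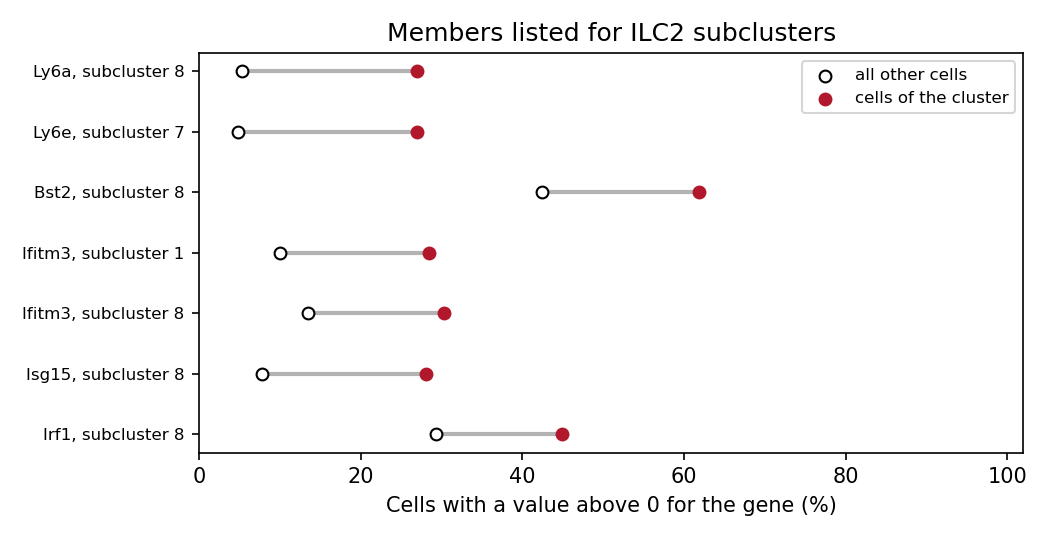
Share of cells (x axis, %) in which each member had a value above 0, in the ILC2 subcluster that listed it (filled) and in all other ILC2s (open), for the 7 listings. All filled points lie to the right of the open ones, and those of *Bst2* and *Irf1* start from the highest shares outside, 42.4% and 29.3%.

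The solved sizes gave the part of the cells with a member that lay in the subcluster that listed it. The size of the subcluster limits this part, most tightly for a gene found in many ILC2s. A share of cells that carry a gene only as free RNA could not be given from these tables. Over all ILC2s, the solved share was 5.44 ± 0.0289% for *Ly6a*, 7.94 ± 0.0289% for *Isg15*, 42.5 ± 0.0289% for *Bst2* and 29.4 ± 0.0288% for *Irf1*, where the error covers rounding of the deposited shares and the size fit only. Subcluster 8 held 3.31 ± 0.0834% of the *Ly6a*-positive ILC2s, 2.37 ± 0.0588% of those with *Isg15* and 1.48 ± 0.0365% of those with *Ifitm3*. It held 0.971 ± 0.0239% of the *Bst2*-positive and 1.02 ± 0.0251% of the *Irf1*-positive ILC2s, where its share of all ILC2s was 0.668%. Subcluster 7 held 7.50 ± 0.0871% of the *Ly6e*-positive ILC2s. Subcluster 1 held 41.7 ± 0.0792% of the *Ifitm3*-positive ILC2s, and 56.8% lay outside subclusters 1 and 8 together.

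**Figure D2:**
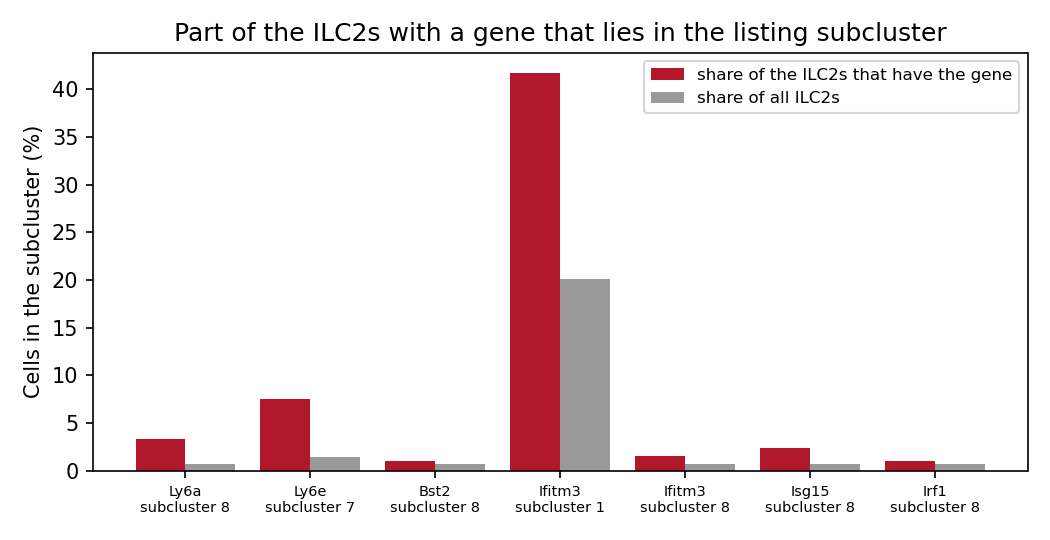
Part of the ILC2s that have a gene found in the subcluster that listed it (red bars, %), beside the size of that subcluster among all ILC2s (grey bars, %). The bar of *Ifitm3* in subcluster 1 reaches 41.7%, and the bars of subcluster 8 all stay at or below 3.31%.

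Other genes of the pathway were counted in 4 lists of 92 genes: regulators of interferon signalling, interferon-stimulated effectors, interferon-inducible GTPases and antigen processing. Of the 92, 48 were anywhere in the ILC2 subcluster table, which a gene enters only by being listed. Subcluster 8 listed 42 of these 48, beside 9.62% of all genes in the table. The 14 GTPases of the list all belong to the GBP and IRG families, which attack the vacuoles of intracellular microbes, and 9 were listed. *Gbp4* was found in 71.9% of subcluster 8 against 27.9% of other ILC2s, *Igtp* in 57.3% against 13.7% and *Gbp2* in 48.3% against 10.3%. The median difference of the 9 listed GTPases, 31.3 points, was above that of the members, 19.4 points. Antigen processing genes were listed for 12 of 14, among them the peptide transporter *Tap1* (76.4% against 41.2%) and the immunoproteasome subunits *Psmb9* (95.5% against 64.3%) and *Psmb10* (92.1% against 63.3%).

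Regulators were listed for 5 of 16 in subcluster 8. The transcription factor genes *Irf7* and *Irf9* were found in 33.7% and 37.1% of its cells, against 12.1% and 16.6% of other ILC2s. Effectors were listed for 16 of 48, with *Zbp1*, a sensor of nucleic acids, in 51.7% against 19.5%. The GTPase gene *Ifi47*, counted among the effectors and not in the GTPase list, was found in 59.6% against 30.9%. The median differences were 20.5 points for the regulators and 20.8 points for the effectors.

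The other subclusters listed fewer of these genes, and no difference between subclusters was tested. Subcluster 1, where *Ifitm3* was listed, listed 15 of the 48 in the table, beside 13.8% of all genes: 8 for antigen processing, 6 effectors, including *Ifi209* (31.9% against 13.9%), and the interferon-α/β receptor gene *Ifnar1* (60.5% against 41.2%). It listed 0 GTPases. Subcluster 7, where *Ly6e* was listed, listed 1 of the 48, beside 10.3% of all genes: *Socs1*, a feedback inhibitor of cytokine signalling (50.5% against 31.8%). Subclusters 2 and 6 listed no member and, of these lists, only antigen processing genes, 5 and 6 of 14, beside 4.98% and 7.23% of all genes. *Psmb9* was found in 84.0% of subcluster 2 against 60.2% of other ILC2s and in 86.4% of subcluster 6 against 63.7%. Subcluster 4 listed no member and 7 of the 48, beside 30.5% of all genes. Among them were *Gbp3* (33.7% against 8.20%), *Ifi47* (61.2% against 28.0%) and 4 antigen processing genes, and its *Ifi47* share was near that of subcluster 8, 59.6%. Subcluster 5 listed 17 of the 48, beside 38.0% of all genes, and these 17 each had a lower share of positive cells inside than outside, as did 978 of the 1000 genes listed for it, for example *Gbp7* with 23.9% against 50.8%. Subclusters 0, 3 and 9 listed 3, 2 and 0 of the 48, beside 11.4%, 9.01% and 7.57% of all genes.

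**Figure D3:**
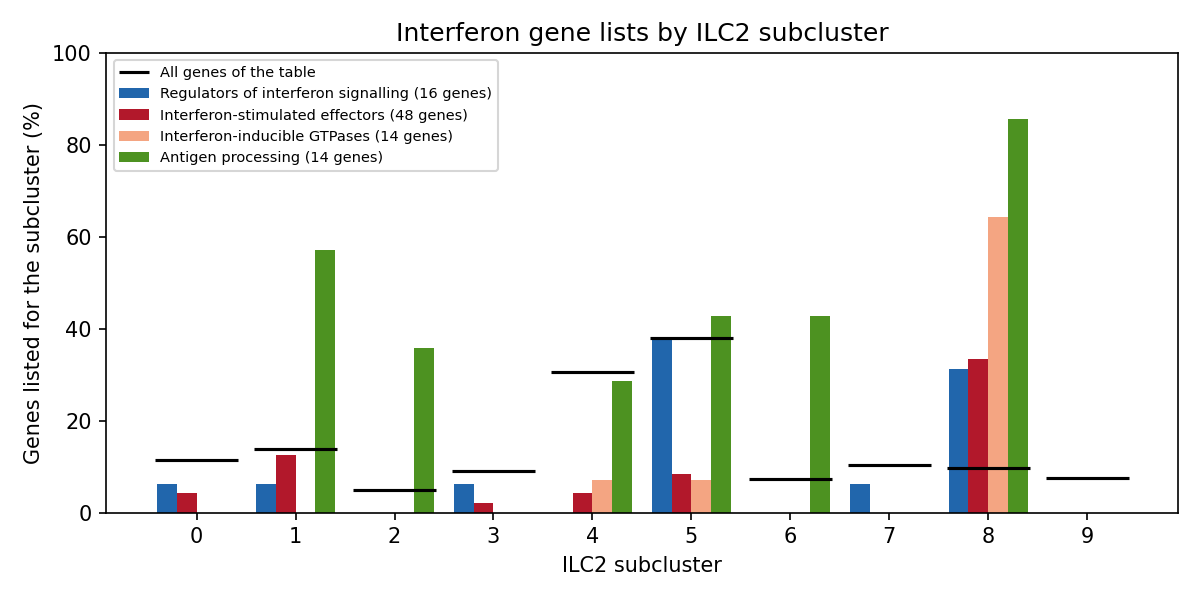
Share of each interferon list that was listed for an ILC2 subcluster (y axis, %), for subclusters 0 to 9, with the share of all genes in the table as a black line. In subcluster 8 all 4 bars stand above the line at 9.62%, and in subclusters 2 and 6 only the bar of antigen processing does.

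Subcluster 8 carried ILC2 markers. The type 2 cytokine gene *Il13* was found in 69.7% of its cells against 36.8%, the growth factor gene *Areg* in 57.3% against 39.5% and the receptor gene *Klrg1* in 85.4% against 68.8%. Of the marker lists of other cells, it listed 0 of the 6 T cell genes in the table, 0 of 1 for NK cells and 0 of 1 for B lineage cells. No myeloid or basophil marker was in the table. These counts say little, because the authors had removed cells with markers such as *Cd3* and *Cd11b* before this clustering. Also, only 9.62% of all genes were listed for subcluster 8. Beside these it listed *Pecam1* (49.4% against 27.1%), the division gene *Top2a* (49.4% against 30.2%) and *Ctla4* (73.0% against 33.5%). Their part in the member values was not tested.

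Among all sorted cells, Endothelium cell and Macrophage listed the most members, 6 each. In the cell type table all 9 members had a listing, 37 in all, over 14 of 21 types, and the largest cluster, ILC2 (43.2% of sorted cells), listed none, beside 8.10% of all genes. The shares in this table are on another scale. Although the sort removed cells with CD3e protein, *Cd3e* was above 0 in 83.5% of the sorted cells by this table. Its share among ILC2s by the other table was 5.76%, which is partly built in, because the authors removed cells expressing *Cd3* to make that set. For *Ly6e* the corresponding shares were 62.4% and 5.12%. Shares of the cell type table were therefore not read as shares of cells that express a gene, and their levels were not compared with those of the other table. *Ly6c2* was likewise above 0 in 70.2% of these cells, although cells stained for Ly6C were sorted away.

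The cluster labelled Endothelium cell (0.805% of sorted cells) listed 6 of 9 members, beside 23.6% of all genes in the table. *Ifitm3* was above 0 in 99.2% of its cells against 23.9% of all others, a ratio of 4.15. *Ly6a* followed with 92.0% against 29.6%, and *Ifitm2* with 98.4% against 37.0%. *Bst2* (92.4% against 58.3%), *Isg15* (80.9% against 43.6%) and *Ly6e* (88.8% against 62.1%) were listed as well. The median difference of the 6 members was 49.4 points, beside 45.2 points over all 397 genes of the cluster. Of the 6 endothelial markers in the table, this cluster listed 5, such as *Cdh5* (93.6% against 15.6%), while the progenitor genes *Cd34* (90.0% against 17.1%) and *Kit* (95.6% against 59.1%) were listed too.

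The cluster labelled Macrophage (4.59%) also listed 6 of 9 members, beside 17.3% of all genes. The surface protein genes *Bst2* (97.9% against 56.7%), *Ly6c2* (96.5% against 68.9%), *Ly6e* (95.9% against 60.7%) and *Ly6a* (43.5% against 29.4%) were listed, and so were *Ifitm2* (85.3% against 35.2%) and *Ifitm3* (66.6% against 22.5%). *Isg15* was not. The median difference of the 6 members was 38.2 points, beside 41.7 points over all 291 genes of the cluster. Myeloid markers such as *Lyz2* (98.5% against 42.3%) and *Cd68* (94.6% against 43.0%) were listed, 3 of the 4 in the table, while the list held 9. The markers *C1qa*, *Csf1r* and *Adgre1* of that list were not in the table. Also listed were *Cd4* (78.4% against 53.3%), the progenitor gene *Sox4* (68.3% against 49.4%), and *Cd79b* and *Ighm* of the B lineage. The label is the authors' own and was not tested. Of the interferon lists, this cluster held the transcription factors *Irf8* (98.0% against 50.9%) and *Irf7* (92.3% against 54.4%) and the effector *Ifi207* (96.5% against 14.5%).

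The progenitor cluster MMP_LMPP (0.387%) listed 4 members, beside 24.0% of all genes: *Ifitm2* (88.6% against 37.3%), *Ifitm3* (74.0% against 24.3%), *Isg15* (69.9% against 43.8%) and *Ly6e* (72.4% against 62.3%). Their median difference was 37.9 points, beside 29.8 over its 403 genes. The cluster listed the progenitor genes *Cd34*, *Kit* and *Sox4*, and also *Cd79a* (76.4% against 27.8%), *Cd79b* and *Ighm* of the B lineage, the antigen presentation gene *Cd74* (90.2% against 27.8%) and the endothelial genes *Eng* (78.0% against 32.4%) and *Egfl7* (63.4% against 18.1%). Their part in the member values was not tested. *Isg15* was above 0 in more cells of MMP_LMPP and of Endothelium cell than elsewhere. Basophil (1.07%), with all 5 basophil markers listed, held 4 members beside 16.4% of all genes, with a median difference of 30.7 points beside 33.3 over its 275 genes. It was the one cell type that listed *Ifitm1*, at 95.5% against 29.7%, and it held *Ifitm2* at 94.3% against 36.9%. *Isg15* was above 0 in fewer basophils, 23.6%, than other cells, 44.1%.

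**Figure D4:**
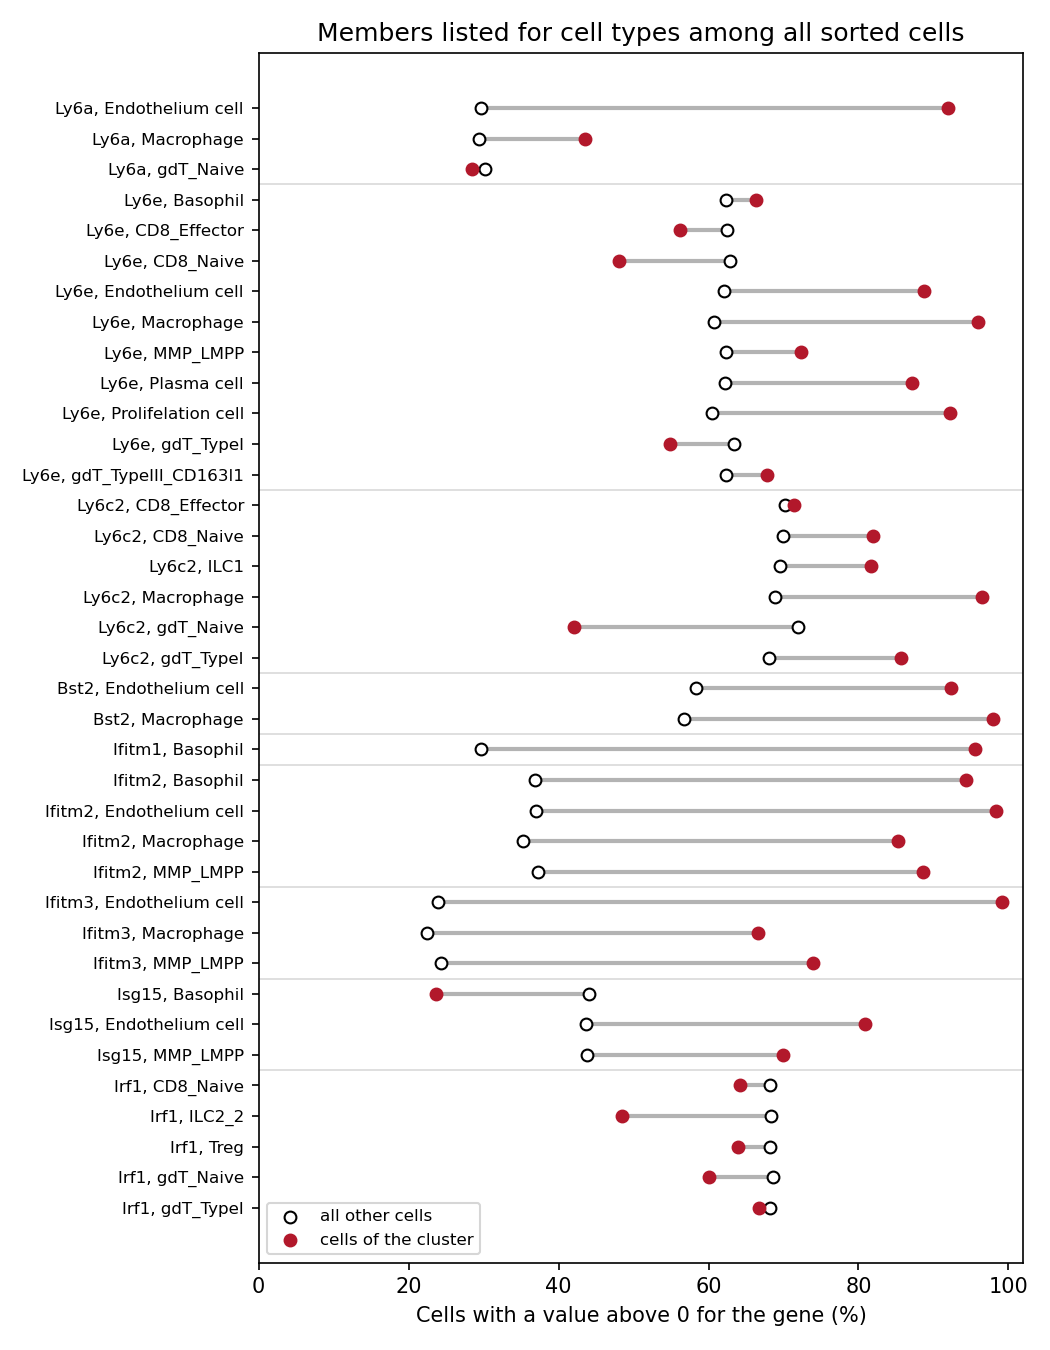
Share of cells (x axis, %) in which each member had a value above 0, in the cell type that listed it (filled) and in all other sorted cells (open), for all 37 listings grouped by gene. The widest gaps belong to *Ifitm1*, *Ifitm2*, *Ifitm3* and *Ly6a*, and all 5 pairs of *Irf1* have the filled point to the left.

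In clusters of T cells and other lymphocytes the shares of cells with a listed member differed in both directions. Rows were deposited for genes higher on average in a cluster, so a lower share inside does not mean a lower average. *Irf1* was listed for 5 types, ILC2_2, Treg, CD8_Naive, gdT_Naive and gdT_TypeI, and its share was lower inside than outside in all 5, from 48.5% against 68.4% in ILC2_2 to 66.7% against 68.2% in gdT_TypeI. Lower shares inside were common there, in 106 of the 200 genes listed for ILC2_2, 77 of 150 for Treg, 113 of 198 for CD8_Naive and 111 of 149 for gdT_Naive, and less so in gdT_TypeI, in 40 of 145. The 3 members listed for gdT_Naive followed the usual direction of its genes, with *Ly6c2* at 42.0% against 72.0%. *Ly6c2* was above 0 in more cells of ILC1 (81.7% against 69.6%), CD8_Naive (81.9% against 69.9%) and gdT_TypeI (85.7% against 68.1%). *Ly6e*, the member with the most listings, was above 0 in 92.2% against 60.4% of the cells labelled Prolifelation cell. That difference, 31.8 points, was below the median of 36.0 points over the 513 genes of the cluster. In Plasma cell *Ly6e* was above 0 in 87.1% against 62.2%, 24.9 points beside a median of 21.35. In CD8_Naive it was above 0 in fewer cells, 48.0% against 62.8%, a difference of -14.8 points beside a median of -1.95. Over all members, 11 of 37 listings had a lower share inside than outside, beside 16.3% of all listings in this table, and 15 had a share at least 1.5 times that outside, beside 37.9%. In the ILC2 subcluster table these were 0 of 7, beside 29.4%, and 6 of 7, beside 32.4%, where of the 1102 lower listings 978 were in subcluster 5 and the subclusters with members held 1.

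Of the 92 genes in the interferon lists, 20 were in the cell type table. Of the GTPases, Treg listed 4 of 14, beside 8.93% of all genes, with a median difference of 1.55 points, from *Gbp3* (50.1% against 33.8%) to *Gbp2* (39.0% against 57.2%). The cluster gdT_Naive listed 4 as well, beside 8.87% of all genes, each with a lower share inside, and its median difference was -16.2 points. Endothelium cell listed 2 of 14, *Gbp4* (72.5% against 65.9%) and *Iigp1* (39.0% against 35.3%), beside 23.6% of all genes. Of the other LY6 and IFITM genes, *Ly6c1*, *Ly6d* and *Ifitm10* were in the cell type table and none was in the ILC2 subcluster table. *Ly6c1* was listed for Endothelium cell (96.0% against 64.3%), Macrophage (91.4% against 63.3%), ILC1, gdT_TypeI and, with near equal shares, CD8_Naive. *Ly6d* was listed for Prolifelation cell (78.1% against 20.5%), Macrophage (63.3% against 22.2%), Plasma cell and MMP_LMPP. *Ifitm10* was listed for Endothelium cell (88.8% against 62.3%), NK, ILC1 and gdT_TypeI and, with lower shares inside, for CD8_Naive and CD8_Effector.

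Genes with the most similar pattern were taken by the overlap of the clusters that listed them, as the Jaccard index (shared clusters over all clusters of either gene). Over the 21 cell types, *Ly6a* shared all its clusters with *Id3* alone, an index of 1, and *Isg15* with *Ruvbl1* alone. The shares of *Isg15* and *Ruvbl1* inside those clusters were 24.1 points apart on average, and those of *Ly6a* and *Id3* 8.3 points. *Ifitm3* shared all its clusters with 7 genes, of which *Marcks* was nearest in its shares, and *Bst2* with 21, nearest *Serpinh1*. *Ifitm2* came nearest to *Aldh2* at 0.8, *Ly6c2* to *Nkg7* at 0.714 (23.7 points apart on average), *Irf1* to *Kbtbd11* at 0.714 and *Ly6e* to *Gsn* at 0.500. In the ILC2 subcluster table *Ifitm3* shared subclusters 1 and 8 with 35 genes, of which *Ifi209* was nearest. These indices rest on few clusters each and describe the tables only.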

How the data were processed

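Single cells of 4 libraries, 1 per group, were profiled by droplet-based sequencing of transcript 3′ ends. The authors aligned reads with Cell Ranger to mm10, removed doublets and dead cells by flow cytometry and excluded cells with few detected genes. They scaled and log-transformed counts per cell and clustered the cells in Seurat. Cells with markers of other types, such as *Cd3* and *Cd11b*, were then left out and the ILC2s re-clustered. The deposited tables pool all libraries and give, per gene and cluster, the fraction of cells with a value above 0 inside and outside, to 3 decimals. Their fold changes and p-values are the authors' own comparisons and were not used here. No counts, depth or cell numbers were analysed, so no interval or p-value was computed.

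Fractions were multiplied to percent and set side by side as differences and ratios. Cluster sizes were solved by least squares from genes listed for at least 2 clusters (Python 3.11.15, numpy 2.4.6, pandas 2.3.3). The share outside plus the size times the difference equals the share in all cells. The fit was tested on simulated data. Named genes were all members and, per gene list and cluster, up to 3 genes with the largest difference in share, and others singled out after their values were seen. The members and gene lists were chosen with earlier results of these data known. Alternatives were a share above that outside, at least 0.1 above and at least 1.5 times it, and other size fits. Gene positions are from GENCODE M21 and promoters from RefSeq (GRCm38.p6). The values of 1 gene of the interferon lists are not reported here.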

Additional observations from a re-analysis of the deposited data

How the results depend on the processing

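No paired analysis was possible because both tables pool the 4 libraries, 1 per group. For the same reason no library could be left out. Members had 37 listings in the cell type table, of which 23 had a share at least 0.1 above that outside and 15 a share at least 1.5 times it. For Basophil, 4 members fell to 2 under either limit. In subcluster 8, 42 genes of the interferon lists fell to 24 with a share at least 1.5 times that outside. The members listed for subcluster 8 numbered 5, 5 with a difference of at least 0.1 and 4 with a ratio of at least 1.5. Of 133 solved shares under other fits, 125 moved by less than their error and 8 by more, by at most 0.0877 percentage points or 4.79% of the value. Unknown depth limits every share: genes in few cells cannot be separated from genes detected poorly, and the values of subcluster 8 rest on 0.668% of ILC2s.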
